A study of Mus musculus with 6 samples.

Results

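Chemokines and their receptors were examined in liver RNA of L1-Tg mice and WT mice. The members were the genes whose symbol begins with Ccl, Cxcl, Ccr or Cxcr followed by a digit, together with Cx3cl1, Cx3cr1, Xcl1 and Xcr1, as given by the RefSeq accession of each array probe. This rule found 53 genes (34 ligands and 19 receptors) on 63 probes, of 37074 genes on 55681 probes. Probes not matched to a RefSeq gene count in that total, and in all shares over all genes, under their array identifier. No probe was matched by the rule to Cxcl11, Ccl21a, Ccl21b, Ccl21c or Ccl27b, which were not analysed here.

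L1-Tg mice are hemizygous for human NPC1L1, a sterol transporter, driven in hepatocytes by the APOE promoter, and come from a single transgenic line, B6;D2-Tg(APOE-NPC1L1)20Lqyu/J, that had been crossed back to C57BL/6J for 8 generations or more. WT mice were their littermates without the transgene. All were males fed a control diet (CFD), mice in the main experiments of the study were 6 to 12 weeks old, and the age of the mice behind these arrays is not given separately. The comparison addresses basal differences in hepatic gene expression between the genotypes. Each group had 3 one-color arrays, and each array held Cy3-labeled RNA pooled from 2 or 3 mice, so that a p-value measures the spread between pools and not between single mice.

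Chemokines are small secreted proteins that guide the migration of leukocytes through receptors coupled to G proteins. They are named by the spacing of their first cysteines (CC, CXC, CX3C and XC). Some are made constantly by tissues and position cells under resting conditions, whereas others are induced by interferons or by the transcription factor NF-kB in hepatocytes, Kupffer cells (the resident macrophages of the liver) and endothelium.

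Signals are given on the log2 scale relative to the 75th percentile of the same array, so that 0 is the 75th percentile and 1 unit is a 2-fold difference. They can be compared between pools for a probe but not between genes. The 75th percentile lay between 296 and 378 fluorescence units, between 53.1% and 59.2% of spots were well above background by the scanner software, and no spot was saturated. All 8 hepatocyte marker genes looked up, including Alb, were measured in both groups. The mouse Npc1l1 probe was well above background in 1 L1-Tg pool and 2 WT pools. It is matched to the mouse transcript, not to the human transgene, and does not check the genotype labels. All 6 arrays lay on 1 slide with the genotypes in separate rows, so row and genotype cannot be told apart. The pool L1-Tg 2 stood apart in pancreatic genes: the median of 4 such genes was 3.76 above the WT mean there, against 0.42 and 0.52 in the other L1-Tg pools.

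Detection divided the family. Of the 53 genes, 24 were well above background on all 6 arrays, 5 on all arrays of 1 group, 9 on some arrays of either group and 15 on none. Among the ligands, 16 of 34 were measured on every array, and among the receptors 8 of 19. The 15 undetected genes were the ligands Ccl1, Ccl11, Ccl20, Ccl22, Ccl26, Cxcl2, Cxcl3, Cxcl15 and Cxcl17 and the receptors Ccr1, Ccr4, Ccr10, Ccr1l1, Cxcr2 and Xcr1. Cxcl2 and Cxcl3, which attract neutrophils through CXCR2, were thus below the detection limit in both genotypes, as was that receptor, and their levels are only bounded. Ccl3, Ccl4, Ccl8, Ccr2 and Cxcr5 were measured in 3 L1-Tg pools and 2 WT pools.

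**Figure D1:**
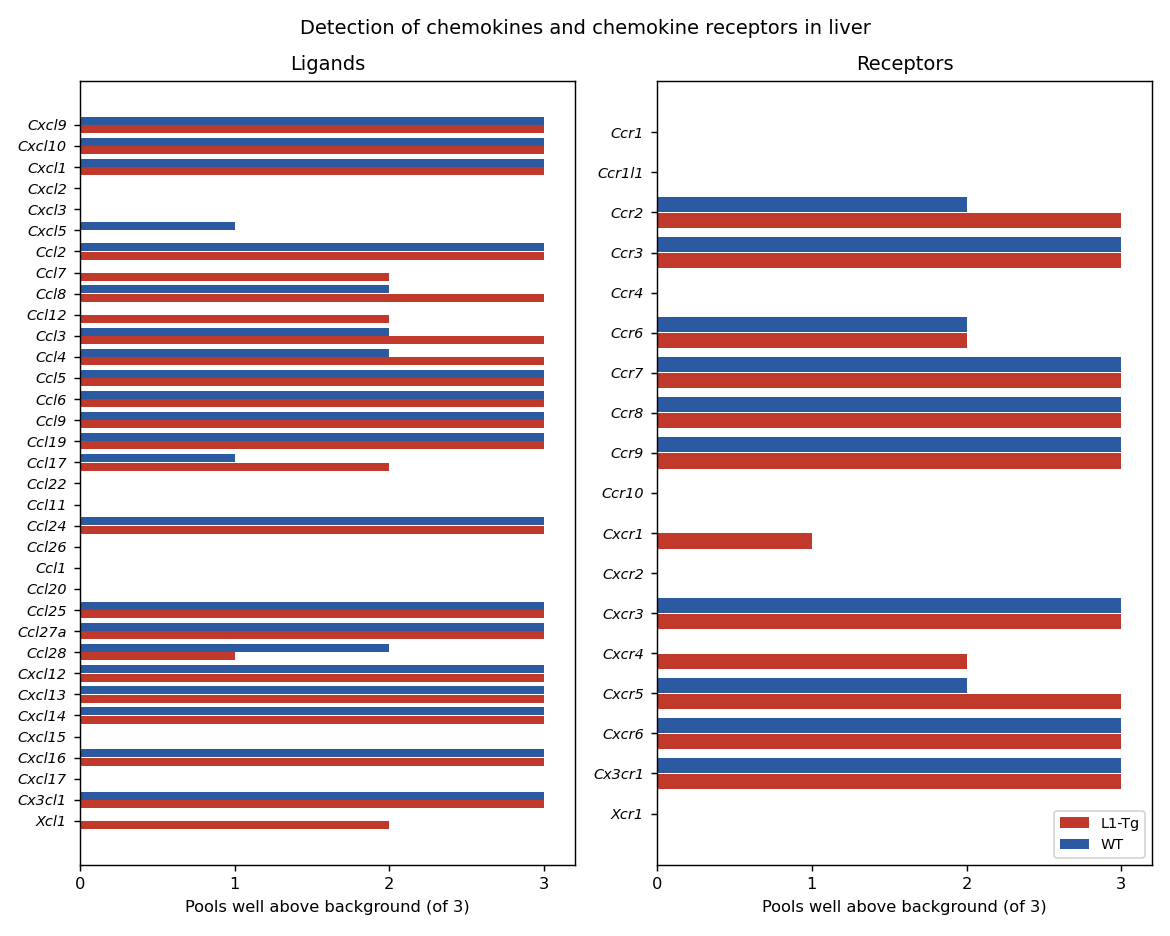
Number of pools, of 3 per genotype, in which chemokines (left) and receptors (right) were well above background, with red bars for L1-Tg and blue bars for WT. Full bars in both colors mark genes measured on all 6 arrays, and 15 genes have no bar.

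The 9 genes measured in part of the arrays are listed singly. No split by genotype is drawn from them, since the same split over all genes was not counted. Ccr6 was seen in 2 pools of each group. WT 1 had the smallest share of spots well above background (53.1%). The lowest signal so called was -3.98 in WT 1, against -4.60 to -4.39 on the other arrays, so dim genes were harder to detect there. Ccl7, Ccl12, Cxcr4 and Xcl1 were seen in 2 L1-Tg pools and no WT pool, Ccl17 in 2 and 1, and Cxcr1 in 1 L1-Tg pool and no WT pool. Ccl28 was seen in 1 L1-Tg pool and 2 WT pools, and Cxcl5 in 1 WT pool. For a gene not measured in any pool of a group, the level there is only bounded. The limit is the lowest signal called well above background on each array of that group, or the probe's own signal where that was higher. Ccl7, a monocyte attractant that shares the receptor CCR2 with Ccl2, read -2.00, -5.27 and -3.31 in the L1-Tg pools and -6.00, -4.81 and -4.15 in the WT pools. Its L1-Tg mean was 1.57-fold above the limit of the WT arrays. That mean includes L1-Tg 2, where the probe was not well above background, so the fold is not a lower bound. The Ccl7 values overlapped, because L1-Tg 2 lay below WT 2 and WT 3. Cxcr4, the receptor of Cxcl12, read -4.99, -4.13 and -4.04 in L1-Tg pools and -6.09, -6.54 and -5.45 in WT pools, and every L1-Tg value was above every WT value. No fold is given for Cxcr4, since its L1-Tg mean was not above the detection limit of the WT arrays.

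In limma, 29 members were compared between the genotypes within the 22340 genes that every array of 1 group or of both had measured. No member passed the Benjamini-Hochberg threshold, against 0.13% of all genes (0.121% higher and 0.00895% lower), and the smallest adjusted p of a member was 0.205 (limma, Cxcl12). At an unadjusted limma p under 0.05 there were 6 members, or 20.7% of those tested, against 8.89% of all genes. The same 6 were the members whose groups did not overlap, against 15.9% of all genes (7.22% higher and 8.71% lower). Cxcl10, Ccl2 and Ccr7 were higher in L1-Tg pools and Cxcl12, Cxcl14 and Ccr3 lower, whereas 4.52% of all genes had such a p and were higher and 4.37% were lower. With 3 pools against 3 an exact two-sided permutation test of a single gene cannot give a p below 0.1. The count was 3 without L1-Tg 1, L1-Tg 3 or WT 1, where 6.68%, 5.06% and 8.49% of all genes had such a p. It was 9 of 33 members tested without L1-Tg 2, where 8% of all genes had such a p. These 9 include Ccl7, Ccl12, Ccl17 and Xcl1, which passed the detection filter only through the L1-Tg pools left. Cxcr4, among the 3 without L1-Tg 1, entered in the same way. By the methods' t-test the count was 2 members, against 8.25% of all genes. In these bulk samples a smaller number of cells of a type and less RNA per cell cannot be told apart.

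Of the 29 tested members 22 were higher in L1-Tg mice, against 42.9% of all genes. Among the 22 were Ccl3, Ccl4, Ccl8, Ccr2 and Cxcr5, which were tested only because every L1-Tg array measured them. With every member measured on all 6 arrays the split was 17 higher and 7 lower, against 41.6% of all genes higher. The median difference was 0.22 for the members and -0.03 for all genes. It was 0.22 for the 19 ligands, of which 13 were higher, and 0.25 for the 10 receptors, of which 9 were higher. With the array median, the authors' own value table or no scaling, 25 members were higher and 4 lower, while 66.2%, 53.6% and 55% of all genes were higher. After normexp correction 20 were higher and 9 lower (41.4% of all genes higher), without a filter 32 and 21 (37.8%), without L1-Tg 3 20 and 10 (45%) and without L1-Tg 2 28 and 5 (42.5%). The 28 include Ccl7, Ccl12, Ccl17 and Xcl1, which were tested there only through the L1-Tg pools left. The array median also moved the median of all genes to 0.08. These directions were uneven across pools. The member median relative to the WT mean was 0.25, 0.00 and 0.36 in L1-Tg pools 1 to 3 and -0.32, 0.11 and 0.09 in WT pools 1 to 3, so L1-Tg 2 lay below WT 2 and WT 3. WT 1 was the lowest pool for 16 of the 29 members, against 15.7% of all genes, and without it the member median was 0.08.

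**Figure D2:**
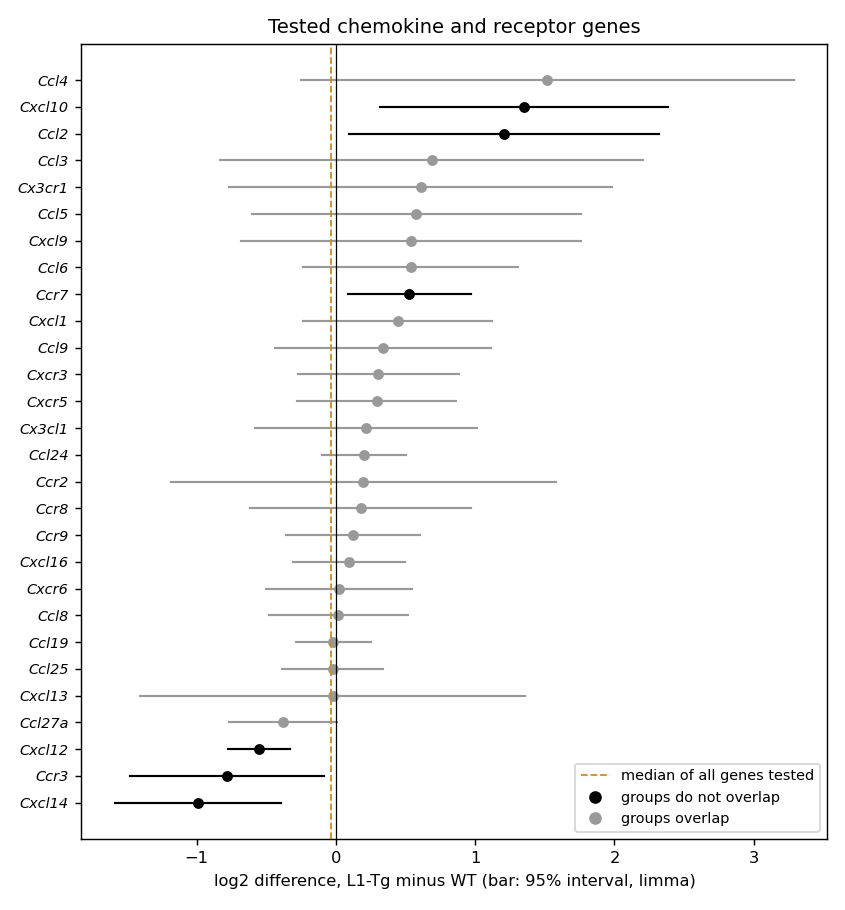
Difference between L1-Tg and WT pools on the log2 scale for tested members (points) with the 95% interval from limma (bars). Black points mark the 6 members whose groups do not overlap, and the dashed line at -0.03 is the median of all 22340 genes tested.

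Among the ligands of CXCR3, a receptor of activated T cells and NK cells, Cxcl10 was higher in every L1-Tg pool than in any WT pool. Cxcl10, an interferon-induced chemokine, read 2.98, 1.80 and 2.68 in L1-Tg pools and 0.37, 1.71 and 1.33 in WT pools. The groups nearly met between L1-Tg 2 and WT 2. The difference was 1.35 with an SE of 0.43, or 2.55-fold (limma unadjusted p = 0.0184, adjusted p = 0.491). Over the alternatives the difference ranged from 0.97 to 1.69 and the adjusted p from 0.360 to 0.935. Cxcl9, the ligand induced mainly by interferon-gamma, read 1.65, 1.06 and 2.08 in L1-Tg pools and 0.18, 2.09 and 0.91 in WT pools. Its groups overlapped, WT 2 being level with the highest L1-Tg pool. The difference of 0.54 had an SE of 0.51 (limma adjusted p = 0.733) and was 0.10 without WT 1. Another Cxcl9 probe differed by 0.61. The receptor Cxcr3 differed by 0.30 (95% interval -0.27 to 0.88).

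The promoters of both genes are shown because both are known interferon targets, yet only Cxcl10 separated the genotypes. RefSeq promoter sequences (GRCm38.p6) with the full window were found for 39 of the 53 members. The 250 bases before the start are printed 5′ to 3′ on the strand of the gene, at chr5:92348890-92349139 for Cxcl10 and chr5:92328080-92328329 for Cxcl9, both on the minus strand, with motif matches in capitals.
Cxcl10: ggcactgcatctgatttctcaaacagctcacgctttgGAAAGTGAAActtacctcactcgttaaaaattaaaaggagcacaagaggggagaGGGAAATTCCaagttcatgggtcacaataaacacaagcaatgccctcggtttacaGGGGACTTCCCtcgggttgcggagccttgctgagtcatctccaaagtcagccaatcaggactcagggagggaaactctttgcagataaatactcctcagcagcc
Cxcl9: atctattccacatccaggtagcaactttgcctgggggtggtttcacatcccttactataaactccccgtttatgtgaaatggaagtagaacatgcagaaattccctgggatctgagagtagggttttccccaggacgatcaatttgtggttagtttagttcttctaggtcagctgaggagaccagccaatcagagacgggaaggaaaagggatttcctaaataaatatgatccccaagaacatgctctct
In Cxcl10 the first capitals are the core of the interferon-stimulated response element (ISRE), spelled GAAA, any 2 bases and GAAA, at 213 to 204 bases before the start. The others are matches to the NF-kB consensus at 159 to 150, 104 to 95 and 103 to 94 bases, the last 2 overlapping each other. None of these motifs, nor the gamma-activated site (GAS) TTCNNNGAA, was found in the Cxcl9 window. Only these spellings were searched, which says nothing about elements spelled otherwise in the window or about sites elsewhere. Both strands were searched. Of all 32851 promoters, 2.98% held the ISRE core, 7.02% the GAS and 7.25% the NF-kB consensus. Of the 39 members, 3 held the ISRE core (Ccl19, Cxcl10 and Cxcl14), 4 the GAS (Ccl17, Ccr1l1, Ccr6 and Cxcl14) and 10 the NF-kB consensus. These 10 were Ccl1, Ccl20, Ccl9, Ccr1, Ccr3, Ccr6, Cxcl1, Cxcl10, Cxcl2 and Cxcl3, of which Ccl1, Ccl20, Ccr1, Cxcl2 and Cxcl3 were undetected here. A match describes the letters of the sequence and not a bound site. For 9 of the 39 members, namely Ccl17, Ccl25, Ccl27a, Ccr2, Ccr3, Ccr4, Ccr6, Cxcl14 and Cxcr1, the window precedes a start that lies within the gene as annotated, so its matches are not in front of the gene as a whole and none of these windows is printed.

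Of the genes listed here as ligands of the monocyte receptor CCR2, Ccl2 and Ccl8 were measured well enough to be tested. Ccl2 is also called MCP-1. Ccl2 read 0.31, -1.52 and -0.80 in L1-Tg pools and -2.29, -1.77 and -1.58 in WT pools. All L1-Tg values were above all WT values, with L1-Tg 2 close to the WT range and L1-Tg 1 far above it. The difference was 1.21 with an SE of 0.46, or 2.31-fold (limma unadjusted p = 0.0376, adjusted p = 0.546), and it was 0.72 without L1-Tg 1. The Ccl2 probe was printed as 10 spots on each array, and the SD between spots was 0.085 to 0.183, well under the spread between the L1-Tg pools (SD 0.92, n = 3). Ccl8, placed in this list although its receptor in the mouse was not examined, read -3.95, -3.59 and -3.14 in L1-Tg pools. In WT pools Ccl8 read -3.59, -3.66 and -3.49. The L1-Tg pools enclosed the WT pools, and the difference was 0.02 (95% interval -0.48 to 0.51). Ccr2 itself read -3.82, -3.84 and -3.11 in L1-Tg pools and -4.82, -2.52 and -4.03 in WT pools, the WT pools enclosing the L1-Tg pools. It differed by 0.20 and by -0.32 without WT 1.

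The inflammatory CC ligands Ccl3, Ccl4 and Ccl5 had higher L1-Tg means with wide spread. Ccl4 (MIP-1 beta) read -1.14, -2.56 and -1.98 in L1-Tg pools and -5.02, -2.31 and -2.92 in WT pools. WT 1, where the probe was not well above background, stood far below the rest, WT 2 lay within the L1-Tg range and WT 3 below it. The difference was 1.52 with an SE of 0.73 (limma adjusted p = 0.587), and was 0.72 without WT 1 and 0.52 after normexp background correction. Ccl3 (MIP-1 alpha) read -2.40, -3.74 and -3.49 in L1-Tg pools and -5.22, -3.04 and -3.43 in WT pools, with WT 1 again lowest and not well above background. Its difference of 0.69 (95% interval -0.83 to 2.21) was 0.02 without WT 1. Ccl5 (RANTES) read 2.08, 1.23 and 2.45 in L1-Tg pools and 0.54, 2.24 and 1.24 in WT pools, and its groups overlapped. It differed by 0.58 (95% interval -0.61 to 1.76) and by 0.18 without WT 1.

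**Figure D3:**
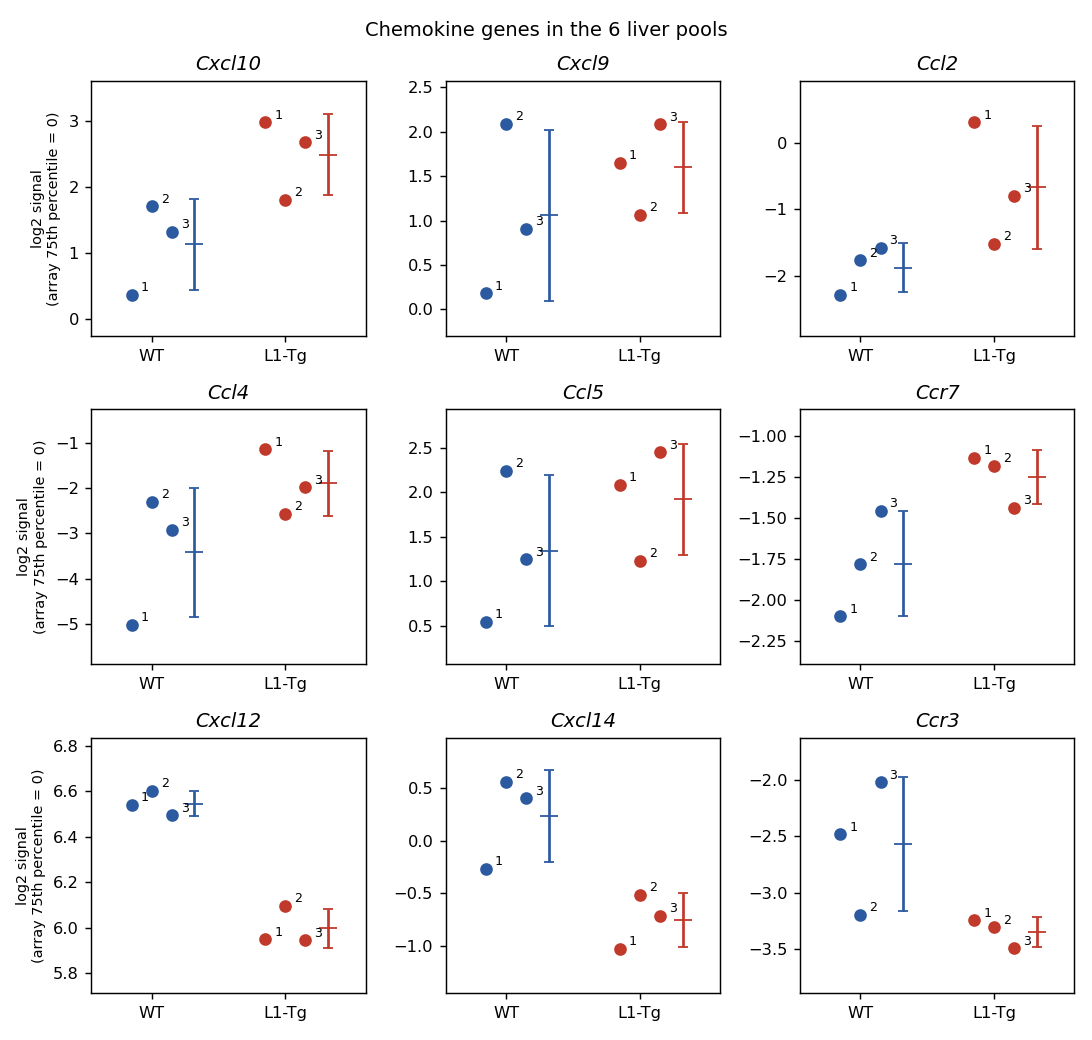
Log2 signal relative to the 75th percentile of the array in each pool (points, numbered by replicate) for 9 members, with the mean and SD of each group (bars, n = 3). WT 1 is the lowest point for Cxcl10, Cxcl9, Ccl2, Ccl4, Ccl5 and Ccr7, and the Cxcl12 groups lie apart with little spread.

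The remaining inducible ligands did not separate the genotypes. Ccl6 and Ccl9, mouse ligands of CCR1, differed by 0.54 (95% interval -0.23 to 1.31) and 0.34 (95% interval -0.44 to 1.11), and their groups overlapped. Cxcl1, the only 1 of 4 CXCR2 ligands on the array that was measured in every pool, read 0.99, 0.01 and 0.30 in L1-Tg pools and -0.19, -0.19 and 0.35 in WT pools. L1-Tg 1 was highest and WT 3 lay above the other L1-Tg pools. It differed by 0.44 (95% interval -0.24 to 1.12). Ccl24, an eosinophil attractant acting on CCR3, differed by 0.20 (95% interval -0.10 to 0.50), while Ccl11 and Ccl26, which also act on CCR3, were undetected.

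The smallest p of the 29 tested members belonged to a constitutive ligand that was lower in L1-Tg pools. Cxcl12, which retains hematopoietic cells through CXCR4, read 5.95, 6.10 and 5.95 in L1-Tg pools and 6.54, 6.60 and 6.49 in WT pools. Every L1-Tg pool was below every WT pool, and the SD was 0.09 in the L1-Tg group and 0.05 in the WT group (n = 3 each). Cxcl12 differed by -0.55 with an SE of 0.09 and was 1.46-fold higher in WT pools (limma unadjusted p = 0.000814, adjusted p = 0.205). Its adjusted p was between 0.0824 and 0.739 over the alternatives, and its unadjusted p stayed under 0.05 in all 16 settings run. A probe for another Cxcl12 transcript read 2.53, 2.73 and 2.83 in L1-Tg pools and 2.83, 3.22 and 2.92 in WT pools, in the same direction with a difference of -0.29 and nearly touching groups (limma adjusted p = 0.594). The promoter of Cxcl12 (chr6:117168285-117168534, plus strand, GRCm38.p6) is shown beside those of the CXCR3 ligands because the gene was lower in L1-Tg pools.
Cxcl12: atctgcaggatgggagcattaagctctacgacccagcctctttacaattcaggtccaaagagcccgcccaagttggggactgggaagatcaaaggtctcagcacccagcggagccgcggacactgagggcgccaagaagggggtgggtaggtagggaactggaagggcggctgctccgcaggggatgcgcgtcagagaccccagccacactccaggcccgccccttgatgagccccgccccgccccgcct
This window held none of the 3 motifs.

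Cxcl14, a chemokine of epithelia that attracts monocytes and dendritic cells, read -1.03, -0.52 and -0.72 in L1-Tg pools and -0.26, 0.56 and 0.40 in WT pools. Again all L1-Tg pools were below all WT pools. It differed by -0.99 with an SE of 0.25 and was 1.98-fold higher in WT pools (limma unadjusted p = 0.00625, adjusted p = 0.406). The unadjusted p was under 0.05 in all 16 settings, with the difference between -1.24 and -0.78.

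Of the other constitutive ligands, Ccl27a, known from keratinocytes, read 1.51, 2.05 and 1.68 in L1-Tg pools and 2.29, 2.07 and 2.04 in WT pools, with L1-Tg 2 reaching into the WT range. Its difference was -0.38 (95% interval -0.77 to 0.01), and 2 further Ccl27a probes differed by -0.40 and -0.20. The probe at -0.40 read 1.32, 1.70 and 1.56 in L1-Tg pools and 2.07, 1.83 and 1.86 in WT pools. Its groups did not overlap (limma unadjusted p = 0.0242, adjusted p = 0.520), whereas those of the probe at -0.20 did. Cxcl13, a B cell attractant, differed by -0.02 (95% interval -1.40 to 1.35). Ccl25, the ligand of CCR9, and Ccl19, a ligand of CCR7, also differed by -0.02 each, and the sign of these small values, like that of Cxcl13, turned positive with the array median, with the authors' table and without scaling. Cxcl16 and Cx3cl1, chemokines made as membrane proteins, differed by 0.09 (95% interval -0.31 to 0.50) and 0.22 (95% interval -0.58 to 1.01).

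Among the receptors, Ccr7 and Ccr3 separated the genotypes in opposite directions. Ccr7, which guides dendritic cells and naive T cells into lymph nodes, read -1.13, -1.18 and -1.43 in L1-Tg pools and -2.10, -1.78 and -1.45 in WT pools. The L1-Tg pools were all higher, although L1-Tg 3 and WT 3 nearly met. The difference was 0.53 with an SE of 0.18, or 1.44-fold (limma unadjusted p = 0.0261, adjusted p = 0.518), and was 0.33 after normexp background correction. Ccr3, the receptor of eosinophils, read -3.24, -3.31 and -3.49 in L1-Tg pools and -2.48, -3.20 and -2.03 in WT pools. Every L1-Tg pool was lower, with WT 2 close to them. It differed by -0.78 with an SE of 0.29 and was 1.72-fold higher in WT pools (limma unadjusted p = 0.0334, adjusted p = 0.537). The difference was -0.40 after normexp correction and -0.51 without WT 3, and the unadjusted p was under 0.05 in 8 of 16 settings.

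Cx3cr1, the fractalkine receptor of monocytes and some macrophages, read -2.03, -2.50 and -0.22 in L1-Tg pools and -2.28, -1.90 and -2.40 in WT pools. L1-Tg 3 alone stood high, and the other L1-Tg pools lay within or near the WT range. Its difference of 0.61 was -0.07 without L1-Tg 3. A further Cx3cr1 probe was well above background in 1 L1-Tg pool only. It read -4.71, -4.74 and -3.14 in L1-Tg pools and -4.74, -6.32 and -5.18 in WT pools, and no fold is given for it. Cxcr5, a receptor of B cells and follicular T cells, read -3.66, -3.79 and -4.22 in L1-Tg pools and -4.58, -4.17 and -3.80 in WT pools, which overlapped, and it differed by 0.29 (95% interval -0.28 to 0.87). The lymphocyte receptors Ccr8, Ccr9 and Cxcr6 differed by 0.18, 0.12 and 0.02, and each 95% interval included 0.

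By the difference index of the methods (difference of linear means over the sum of the SDs, called above 0.7 in size), 20 of all 53 members were called, or 37.7%, against 30.3% of all genes. Of these, 7 were higher in L1-Tg pools and 13 lower, against 8.61% and 21.7% of all genes. The lower side was largely made of genes without a measured signal: 9 of the 13 were on no array well above background. Of the 9 called members measured on all 6 arrays, 5 were higher and 4 lower. The split depended on the scaling, with 8 higher and 7 lower by the array median, 7 and 5 after quantile normalization, 5 and 6 without scaling and 7 and 8 after normexp correction. The share of all genes called in these settings was 20.8%, 22.1%, 16.3% and 23.2%. With an added criterion of a 2-fold change, 5 members were called, 4 higher and 1 lower, against 2.51% of all genes.

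Other genes of the chemokine pathway, namely the chemokines Pf4 and Ppbp, atypical receptors and signaling proteins downstream of the receptors, gave a median difference of 0.05, with 16 of 22 tested genes higher and none at an unadjusted limma p under 0.05. The smallest p-values belonged to Rac2 and Vav1, which act in leukocyte motility, with differences of 0.44 and 0.47, and to Rgs2, an inhibitor of G protein signaling, with 0.41. Of 21 tested interferon-induced genes outside the family, 20 were higher in L1-Tg pools and 14 had an unadjusted limma p under 0.05, with a median of 1.29. The leading ones were Oasl1, Rsad2 and Ifit2, with differences of 1.37, 1.90 and 1.47 (limma adjusted p = 0.179 for each). Of 15 tested NF-kB targets other than chemokines, 12 were higher and 2 had such a p, Lcn2 with a difference of 1.79 and Relb with 0.73, and the median was 0.19.

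**Figure D4:**
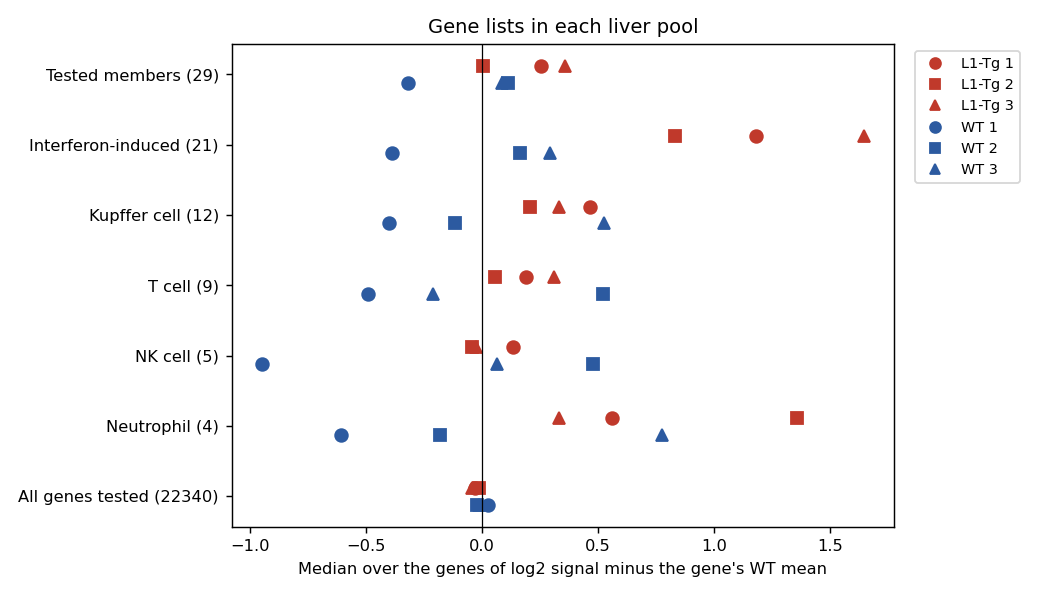
Median over the genes of each list of the log2 signal minus the WT mean of the gene, in each L1-Tg pool (red) and WT pool (blue), with the number of tested genes in brackets. WT 1 (blue circle) lies lowest for the tested members and for every cell type shown, whereas the interferon-induced genes separate the genotypes in all pools.

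Markers of leukocytes also differed between pools. Of 12 tested Kupffer cell markers 11 were higher in L1-Tg pools, with a median of 0.31 and none at an unadjusted limma p under 0.05, and their summed signal was 174 to 206 times the 75th percentile in L1-Tg pools and 110 to 204 times in WT pools. Monocyte markers had a median of 0.55 over 7 genes and a summed signal of 180 to 190 against 206 to 222 times, with Plac8, F13a1 and Chil3 higher and Csf3r lower at an unadjusted limma p under 0.05. Such a sum follows the strongest signals of a list and not most of its genes. Of the 7 monocyte markers 5 were higher in L1-Tg pools and 2 lower. The strongest signal was that of Csf3r, with means of 7.37 in L1-Tg pools and 7.61 in WT pools. Neutrophil markers had a median of 0.71 over 4 tested of 8 genes on the array, with a summed signal of 4.36 to 8.22 against 2.41 to 5.43 times, and Mmp9 was not well above background on any array. T cell, NK cell and B cell markers had medians of 0.11, 0.09 and 0.54, with summed signals of 82.4 to 98.3, 10.6 to 11.7 and 3.43 to 5.14 times in L1-Tg pools against 91.0 to 227, 9.83 to 13.6 and 2.87 to 4.07 times in WT pools. Of 9 tested T cell markers 7 were higher in L1-Tg pools and 2, Cd4 and Cd3e, lower. Only Cd3e had an unadjusted limma p under 0.05 (0.045), with a difference of -0.30. The Cd3e groups did not overlap, which held for 15.9% of all genes. Of the markers not tested, Ncr1, Klrb1c, Klrk1 and Cd247 were well above background in 1 L1-Tg pool and no WT pool, Eomes, Mmp8 and Ngp in 1 WT pool and no L1-Tg pool, Ltf and Pax5 in 2 L1-Tg pools and 1 WT pool, and Blk in none. WT 1, the lowest pool for most members, was also the lowest for the medians of Kupffer cell, neutrophil, T cell, NK cell and B cell markers, at -0.40, -0.61, -0.49, -0.95 and -0.66 relative to the WT mean. For bile duct, stellate cell and hepatocyte markers WT 1 instead lay above the WT mean, at 0.53, 0.27 and 0.04. The part of cell numbers, of the pool WT 1 and of interferon-induced expression in the chemokine values was not tested.

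**Figure D5:**
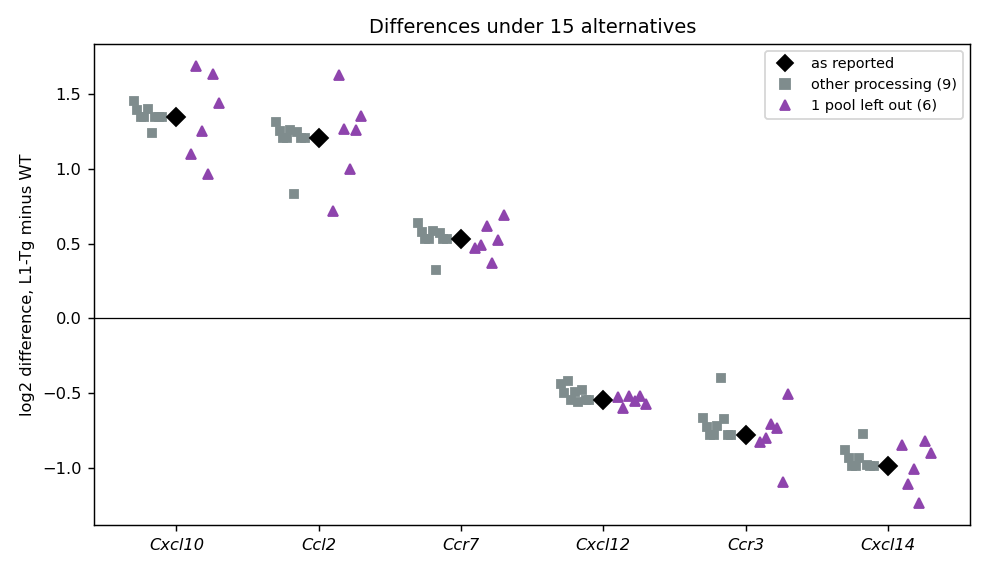
Log2 difference between L1-Tg and WT pools of the 6 members whose groups do not overlap, as reported (black), under 9 other processing settings (gray) and with 1 pool left out (purple). All values keep their sign, and the Cxcl12 values lie closest together, between -0.60 and -0.42.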

How the data were processed

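Liver RNA of 3 L1-Tg and 3 WT pools was hybridised by the authors to SurePrint G3 Mouse arrays and read with Agilent Feature Extraction 10.10.1.1. The deposited intensities are background-subtracted on a linear scale, and multiplying them by a single factor per array gives the authors' series matrix. The deposited spot marks for detection and uniformity served as scores of 0 or 1.

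Control spots (3671 of 62976) and non-uniform spots were left out and repeated spots averaged. From the deposited intensities log2 values were taken, and the array's 75th percentile was subtracted. Accessions named 27235 probes through RefSeq (GRCm38.p6). The other probes kept their array identifier and were counted as genes under it. Probes were kept where every array of a group, or of both, lay well above background, and the brightest probe on average stood for its gene, which left 22340 genes. The test was that of limma 3.58.1 (R 4.3.3; lmFit, eBayes, two-sided, Benjamini-Hochberg over all genes, threshold 0.05), with jsonlite 2.0.0 and the data.table package (version 1.17.8). Figures were drawn with matplotlib 3.10.9 in Python 3.11.15. On simulated data 60% of genes changed by 1 and 88% of genes changed by 2 on the log2 scale were recovered. The changed genes were drawn from all genes tested, each with its own spread. The median SE was 0.282 for the tested members and 0.135 for all genes tested, so these shares do not describe the members. The number of arrays limits the precision. The methods' index was computed on all 37074 genes without a filter.

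Groups follow the genotype given per the labels. Alternatives were scaling, background correction, the detection filter, the authors' table, probe averaging, the methods' t-test, a replicate block and leaving out each pool. Neither the labels nor the methods say that the replicate numbers pair the pools. Members with values per array were those at an unadjusted p under 0.05, with groups that do not overlap, or measured in all arrays of only 1 group, plus Ccl2 and the CXCR3 ligands; further values shown were chosen after they were seen. The values of 1 member are not reported here, although it is counted. The members and lists were chosen with earlier results of these data known.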

Additional observations from a re-analysis of the deposited data

How the results depend on the processing

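No member passed the adjusted limma threshold in any of the 16 settings (smallest adjusted p 0.0824, Cxcl12, normexp), and 0 did by the methods' t-test, which left 2 members at an unadjusted p under 0.05. That is 2 of 29 members, against 8.25% of all genes. Leaving out 1 pool gave 3 to 9 members at an unadjusted limma p under 0.05 (5.06% to 12.6% of all genes), 7 to 15 with groups that do not overlap (21.4% to 32%), and 18 to 28 past the index (33.8% to 40.9%). In these runs 29 to 33 members were tested. The 9 and the 15, both without L1-Tg 2, include Ccl7, Ccl12, Ccl17 and Xcl1, tested only through the L1-Tg pools left. Without a filter on dim probes 14 of 53 members did not overlap (22.7% of all genes). Among these, Ccl11, Ccl20, Ccl22, Ccr1, Cxcl3, Cxcl15 and Xcr1 were well above background on no array, and all of them read lower in L1-Tg pools. Past the index there were 11 members without scaling (16.3% of all genes), 12 after quantile normalization (22.1%) and 5 with the 2-fold criterion. The median was 0.12 to 0.33 over the processing alternatives and 0.08 to 0.44 with 1 pool left out. All genes past the adjusted threshold numbered 29, against 10 without a filter, 11 with the replicate block, and 15 to 36 with 1 pool left out.

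With the replicate number as a block, 4 of 29 members had an unadjusted limma p under 0.05 (Ccr3, Cxcl10, Cxcl12 and Cxcl14) and 0 passed after adjustment. Same-numbered pools correlated at -0.16, 0.11 and 0.02, and pools of other numbers at -0.17 to 0.17. With so few pools these values cannot decide on a pairing, and the numbers were not taken as pairs.

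Signs turned for small differences. Ccl19 became 0.0906 with the array median, 0.0312 with the authors' table, 0.0392 as the mean of probes, 0.0376 without scaling and 0.0043 after quantile normalization. Ccl25 and Cxcl13 became 0.0857 and 0.0845 with the array median, 0.0263 and 0.0252 with the authors' table, and 0.0327 and 0.0316 without scaling. Ccr2 became -0.0597 and Cxcr5 -0.0252 after normexp. With 1 pool left out the differences ranged from -0.0995 to 0.0448 for Ccl19, -0.15 to 0.0573 for Ccl25, -0.19 to 0.21 for Ccl8, -0.32 to 0.83 for Ccr2, -0.0397 to 0.31 for Ccr9, -0.15 to 0.50 for Cx3cl1, -0.0720 to 1.07 for Cx3cr1, -0.52 to 0.48 for Cxcl13, -0.0395 to 0.22 for Cxcl16 and -0.18 to 0.20 for Cxcr6. The cause was not tested.

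Dim probes limit the comparison. Of the 53 members, 24 were not measured on all arrays of any group.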
